A study of Mus musculus with 12 samples.

Results

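The 10 genes described here encode sensors, transcription factors and processing enzymes of the unfolded protein response: Atf6, Atf6b, Ern1, Eif2ak3, Xbp1, Ddit3, Hspa5, Mbtps1, Mbtps2 and Creb3. They were taken by gene name from a count table that listed 54532 genes. The 10 names matched 11 gene entries, because Ddit3 stood for a second, short entry (ENSMUSG00000116429), which had 0 counts in every library and was not used. The genes were chosen by their role with earlier results of these data known: the set was selected on the cortical-to-total ratio of Atf6b in unwounded cells and on how much of it was kept after wounding. Cortical-to-total ratios are therefore given for the 10 genes as description, and counts of calls among them only beside the share of all genes, with nothing read from them.

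The libraries were made from cultured mouse keratinocytes, the main cells of the epidermis, of the genotype WT DP-BirA(1-584). All cells, unwounded ones included, had been switched with doxycycline at 2 µg/mL and calcium (1.2 micromolar as labelled). The switch was meant to differentiate them, and how far it did so was not tested. They made residues 1 to 584 of desmoplakin, a desmosomal protein, fused to the biotin ligase BirA. Biotin was supplied for 16 h. The translating part of a sucrose gradient was passed over neutravidin, and the bound RNA is called cortical here. The unbound, depleted remainder is called total. The 4 groups of 3 biological replicates were the total and the cortical fraction of unwounded cells and the same fractions of wounded cells. The labels do not say whether the replicates were separate cultures, so the p-values measure the spread between these libraries, which may in part be technical. Every group carried the fusion protein, and no group without it was analysed here.

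The unfolded protein response adjusts a cell to misfolded protein in the endoplasmic reticulum (ER). Its sensors are IRE1 (Ern1), PERK (Eif2ak3) and the ATF6 proteins, which sit in the ER membrane and are held in check by the chaperone BiP (Hspa5). IRE1 splices Xbp1 mRNA so that it encodes an active transcription factor, PERK slows translation while favouring the mRNA of ATF4, and ATF6 moves to the Golgi, where the site-1 and site-2 proteases (Mbtps1 and Mbtps2) release its DNA-binding part. In the epidermis this response is known to accompany keratinocyte differentiation.

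Atf6 and Atf6b are paralogs, and the results turn on telling their mRNAs apart. The stretch of coding sequence shown holds their longest shared run with 45 bases on each side. Both lines are mRNA-sense coding sequence of 104 bases (GRCm38, GENCODE M21), from coding base 844 to 947 in Atf6 and from 961 to 1064 in Atf6b, over the basic region that contacts DNA. Capitals mark bases that are the same at the same place in both.
Atf6: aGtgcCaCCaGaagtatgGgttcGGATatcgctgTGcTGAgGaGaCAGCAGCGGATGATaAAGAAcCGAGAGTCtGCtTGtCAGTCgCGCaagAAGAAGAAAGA
Atf6b: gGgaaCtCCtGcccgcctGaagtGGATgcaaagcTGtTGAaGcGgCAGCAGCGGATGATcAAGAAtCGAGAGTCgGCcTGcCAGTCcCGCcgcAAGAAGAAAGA
In this window 67 of the 104 bases were identical. Over the whole alignment of 1841 coding bases identity was 64.1%, and the longest run that the pair of transcripts shared without a mismatch was 14 bases. Whether reads from the shared stretches were assigned to 1 gene or left out is not given in the sources used here.

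The Xbp1 site that IRE1 cuts is shown because IRE1 acts on this mRNA by splicing, which a count per gene does not show. Capitals mark the 26 bases that IRE1 removes, coding bases 479 to 504 of the unspliced mRNA, read from the annotated transcript.
Xbp1: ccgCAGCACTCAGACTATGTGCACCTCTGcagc
The count table holds 1 value per gene and library, so spliced and unspliced Xbp1 were counted together and their shares were not analysed here.

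The promoter of Hspa5 is shown because this gene is a classical target of cleaved ATF6. The 250 bases before the RefSeq start site lie at chr2:34771840-34772089 on the plus strand of GRCm38.p6, and capitals mark an ER stress response element, the motif that ATF6 binds together with NF-Y.
Hspa5: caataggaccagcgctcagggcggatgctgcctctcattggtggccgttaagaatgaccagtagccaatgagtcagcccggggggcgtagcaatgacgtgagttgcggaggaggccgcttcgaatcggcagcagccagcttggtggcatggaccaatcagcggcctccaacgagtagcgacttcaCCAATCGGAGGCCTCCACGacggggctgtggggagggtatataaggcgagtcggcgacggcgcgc
The element, CCAAT and CCACG with 9 bases between them, searched on both strands of windows running from 250 bases before to 50 bases after each start, was found in 39 of 32851 RefSeq promoters (0.119%). Among the members, 9 had a promoter in the RefSeq table, and 1 of the 9, Hspa5, held the element, at -65 to -47 from the start. The related element of ATTGG and CCACG with 1 base between them was found in 0.0365% of all promoters and in 0 of the 9. TGACGTG, the core of the unfolded protein response element, was found in 2.01% of all promoters and in 1 of the 9, again Hspa5. The shorter TGACGT, which lies within TGACGTG, gave 7.51% and the same single member, and TGATGNAAN, a motif bound by ATF4 and its partners, gave 3.95% and 0 of the 9. A match describes the letters in the window and no binding.

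Library totals ran from 8980013 to 23457548 counts, and 13571 genes, all 10 members among them, had enough counts to be tested. Wounded total replicate 1 stood apart: 13117 genes had a count there, against 14393 to 16867 in the other libraries, and 41.2% of the genes expected at 10 to 20 counts were at 0, against 0.607% to 24.7% elsewhere. Results that touch this library are given with and without it where the call changed. Keratinocyte markers other than Krt1 were present in every library, and the 8 markers summed to 8332 to 18725 CPM (counts scaled to library size). Over all libraries 8 of 8 had a mean of at least 1 CPM. Krt1 was near that limit, running from 0 CPM in a wounded total library to 1.84 CPM in an unwounded cortical one. The summed levels of fibroblast markers (0.585 to 6.47 CPM), endothelial markers (0.274 to 1.87 CPM) and melanocyte markers (2.31 to 10.4 CPM) were low. The immune markers summed to 17.8 to 58.7 CPM, with only Cd68 of the 5 at a mean of at least 1 CPM.

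Atf6b (ENSMUSG00000015461, chromosome 17, 34647146 to 34655074, plus strand of GRCm38) encodes the ATF6 paralog ATF6β, a membrane-bound transcription factor. Its level, as CPM after TMM scaling for library composition, was 63.5, 66.2 and 70.5 in the unwounded total libraries and 345, 333 and 349 in the unwounded cortical ones. After wounding it was 70.4, 57.3 and 69.8 in the total and 135, 140 and 143 in the cortical libraries. The total libraries of both treatments overlapped, the wounded cortical libraries lay above them all, and the unwounded cortical libraries lay highest. The cortical-to-total ratio was 5.14-fold in unwounded cells (log2 ratio 2.36, SE 0.10), the 51st highest of 13571 genes, and 2.12-fold in wounded cells (log2 ratio 1.08, SE 0.10). In these bulk libraries, fewer cells carrying an mRNA and less of it per cell cannot be told apart, and CPM gives an mRNA's share of its library, not its amount.

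Atf6 (ENSMUSG00000026663, chromosome 1, 170704674 to 170867771, minus strand) encodes ATF6α, the family member best known for switching on ER chaperone genes. It stood at 20.6, 17.4 and 17.2 CPM in the unwounded total and 70.1, 63.9 and 59.9 CPM in the unwounded cortical libraries. In wounded cells it stood at 24.1, 23.2 and 24.5 CPM in the total and 41.6, 41.4 and 39.9 CPM in the cortical libraries. No library of one group reached into the range of another. The order from unwounded total, wounded total and wounded cortical to unwounded cortical held for every replicate. The cortical-to-total ratio was 3.51-fold in unwounded cells (log2 ratio 1.81, SE 0.12), the 112th highest of all genes tested, and 1.71-fold in wounded cells (log2 ratio 0.78, SE 0.12).

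**Figure D1:**
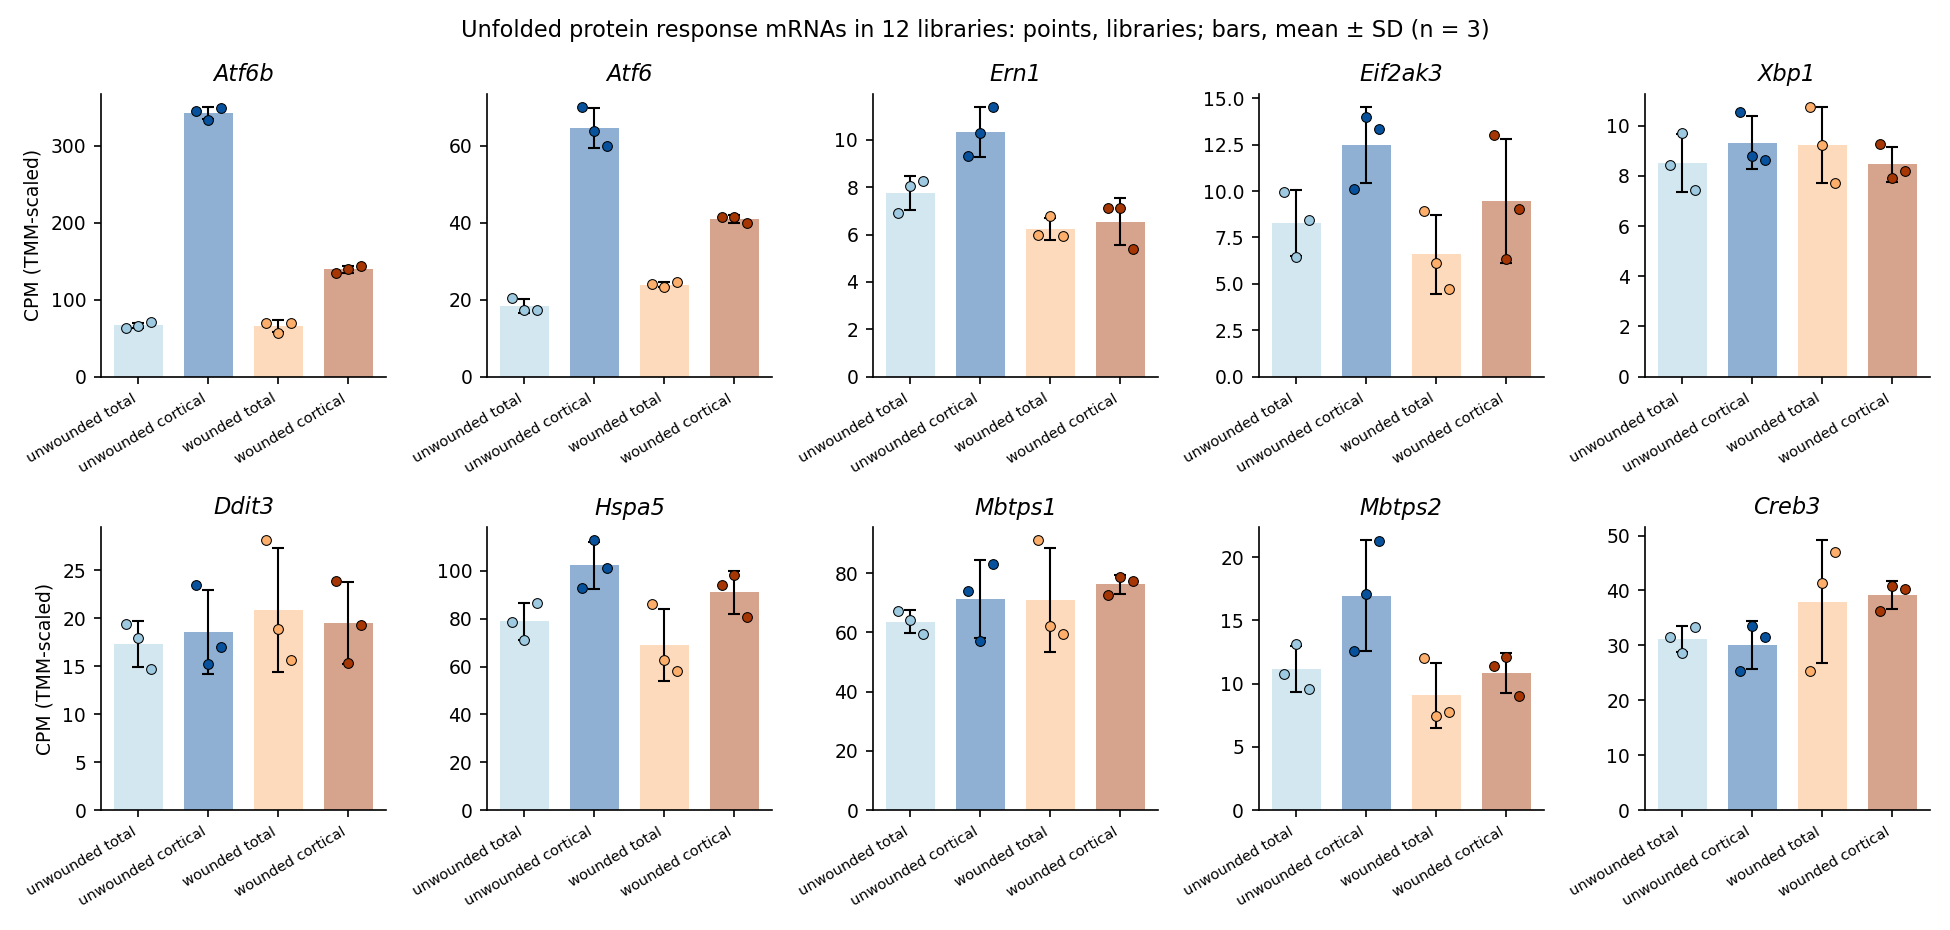
CPM of the 10 unfolded protein response genes (vertical axes, linear from 0 and scaled separately for each gene) in the 4 groups, with points for single libraries and bars for the mean ± SD of 3 libraries. Atf6b and Atf6 are highest in the 3 unwounded cortical libraries (333 to 349 CPM and 59.9 to 70.1 CPM) and intermediate in the wounded cortical ones, while the other 8 genes differ less between groups.

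Per length, Atf6b was the most abundant of the 10 mRNAs in every group, at 23.8 ± 1.33 FPKM (fragments scaled by gene length and library size; SD, n = 3) in the unwounded total and 124 ± 3.18 FPKM in the unwounded cortical group. Atf6 stood at 1.96 ± 0.206 FPKM and 6.98 ± 0.525 FPKM in the same groups. The FPKM of Atf6b was 10.3 to 13.7 times that of Atf6 in the unwounded total libraries and 16.5 to 19.5 times in the unwounded cortical ones. In wounded cells it was 8.28 to 9.79 times in the total and 10.9 to 12 times in the cortical libraries. These multiples depend on the gene lengths behind the FPKM, 9231 bases for Atf6 and 2757 for Atf6b. Without scaling by length, the unwounded total means were 66.7 CPM for Atf6b and 18.4 CPM for Atf6. The transcripts differ in shape: the longest annotated coding sequences are 1971 bases in Atf6 and 2130 bases in Atf6b, but 5205 bases follow the stop codon in Atf6 and 182 in Atf6b.

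Per length, the mRNAs of the other sensors, IRE1 and PERK, and that of Mbtps2 were the lowest of the 10 in every group. Ern1 (ENSMUSG00000020715, chromosome 11) stood at 6.93, 8.07 and 8.25 CPM in the unwounded total and 9.30, 10.3 and 11.4 CPM in the unwounded cortical libraries. The wounded values were 5.99, 6.79 and 5.95 CPM in the total and 7.13, 7.11 and 5.39 CPM in the cortical libraries. The unwounded cortical libraries lay above all 9 others. The log2 ratio of cortical to total was 0.41 (SE 0.22) before and 0.07 (SE 0.23) after wounding.

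Eif2ak3 (ENSMUSG00000031668, chromosome 6), the gene of PERK, ranged from 6.44 to 9.96 CPM in the unwounded total libraries and from 10.1 to 14 CPM in the unwounded cortical ones. It ranged from 4.72 to 8.90 CPM in the wounded total and from 6.35 to 13 CPM in the wounded cortical libraries, so the wounded groups overlapped. Its log2 ratio was 0.58 (SE 0.29) unwounded and 0.53 (SE 0.30) wounded. Counts of this gene went down to 77 in a library, and a gene model on the other strand overlaps 8.05% of its exonic length, which these non-directional libraries cannot separate.

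Among the downstream factors, Xbp1 (ENSMUSG00000020484, chromosome 11, 5520659 to 5525893, plus strand), the substrate of IRE1, was nearly level. It ranged from 7.42 to 9.71 CPM in the unwounded total, 8.64 to 10.6 CPM in the unwounded cortical, 7.72 to 10.7 CPM in the wounded total and 7.92 to 9.25 CPM in the wounded cortical libraries. Its log2 ratio was 0.14 (SE 0.22) unwounded and -0.12 (SE 0.22) wounded, and all 4 groups overlapped. Ddit3 (ENSMUSG00000025408, chromosome 10), which encodes CHOP, a factor induced through PERK and ATF4, ranged from 14.7 to 28.1 CPM over all 12 libraries, with log2 ratios of 0.10 (SE 0.23) and -0.09 (SE 0.23). In each group the highest Ddit3 value was that of replicate 1.

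Hspa5 (ENSMUSG00000026864, chromosome 2, 34771970 to 34777547, plus strand) encodes BiP, the main ER chaperone and the gene whose promoter is printed above. It stood at 78.8, 71.3 and 86.6 CPM in the unwounded total and 92.8, 113 and 101 CPM in the unwounded cortical libraries. The wounded values were 86.1, 62.7 and 58.2 CPM in the total and 94.3, 98.1 and 80.9 CPM in the cortical libraries. The unwounded groups did not overlap, and the wounded groups overlapped through wounded total replicate 1, the library that stood apart. The log2 ratio was 0.37 (SE 0.14) unwounded and 0.40 (SE 0.14) wounded.

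The proteases that release ATF6 and the related factor Creb3 showed small ratios. Mbtps1 (ENSMUSG00000031835, chromosome 8), the site-1 protease, stood at 63.6 ± 3.91 CPM in the unwounded total and 71.3 ± 13.2 CPM in the unwounded cortical group (SD, n = 3), and at 70.9 ± 17.5 CPM and 76.2 ± 3.30 CPM in the wounded groups. Mbtps2 (ENSMUSG00000046873, chromosome X), the site-2 protease, stood at 11.2 ± 1.81 CPM and 17.0 ± 4.35 CPM in the unwounded total and cortical groups, and at 9.06 ± 2.59 CPM and 10.8 ± 1.61 CPM in the wounded ones. Its log2 ratio was 0.59 (SE 0.24) unwounded and 0.26 (SE 0.25) wounded, and both pairs of groups overlapped. Yy2 lies within Mbtps2 on the same strand, over 28.4% of its exonic length, so these counts are uncertain. Creb3 (ENSMUSG00000028466, chromosome 4), a membrane-bound factor cut by the same proteases, had log2 ratios of -0.06 (SE 0.18) and 0.04 (SE 0.18), and overlaps Tln1 on the other strand over 15.2% of its length.

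Of the 10 members, 2 (Atf6 and Atf6b) passed an adjusted p of 0.05 in the unwounded cortical-to-total comparison, where 14.2% of all genes tested passed in either direction and 6.62% were higher. The same 2 passed in wounded cells, against 15.7% of all genes in either direction and 7.62% higher. The median log2 ratio of the members was 0.39 unwounded and 0.18 wounded, beside 0.00 and 0.04 over all genes tested. The cortical libraries lay wholly above the total ones for 5 members in unwounded cells (17.1% of all genes) and for 2 in wounded cells (16.2% of all genes). Because the genes were put together with these ratios known, nothing is read from these counts. Scaling by library size alone raised the median log2 ratio of all genes by 0.187 unwounded and 0.211 wounded, and the directions given are relative to that median.

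**Figure D2:**
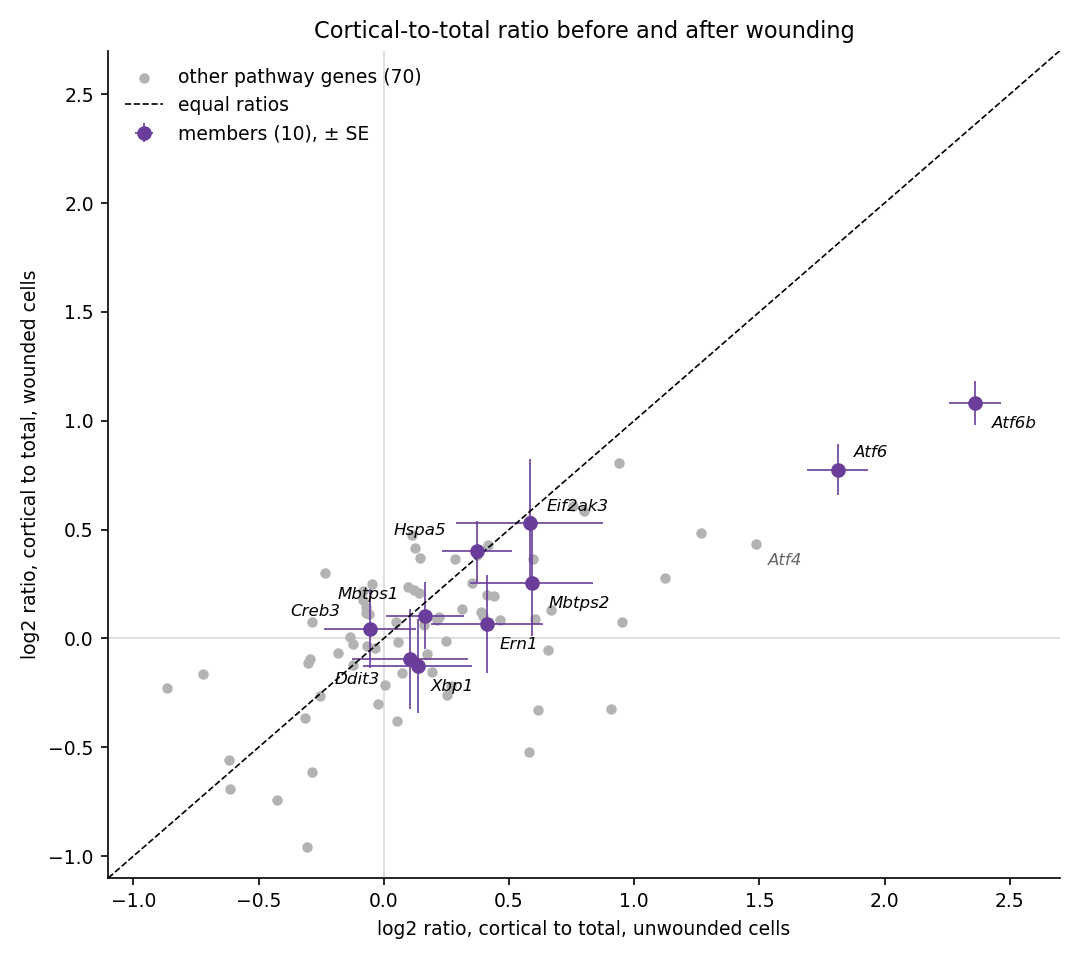
Cortical-to-total log2 ratio in unwounded cells (horizontal axis) against the same ratio in wounded cells (vertical axis) for the 10 genes (with SE) and for the 70 other pathway genes described below, in grey. Atf6b (2.36 and 1.08) and Atf6 (1.81 and 0.78) lie far to the right and below the line of equal ratios, and the other 8 lie between -0.06 and 0.59 on the horizontal axis.

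The share of the cortical enrichment kept after wounding was taken as the wounded log2 ratio in percent of the unwounded one, for the 4 members with an unwounded log2 ratio of at least 0.5, which 14.2% of all genes had. It was 45.8% for Atf6b, 42.8% for Atf6, 43.5% for Mbtps2 and 90.6% for Eif2ak3. Mbtps2 and Eif2ak3 lay just inside the limit (0.59 and 0.58), and Ern1 and Hspa5 just outside (0.41 and 0.37). Leaving out each library in turn moved the share between 41.5% and 48.0% for Atf6b and between 40.3% and 44.4% for Atf6. For Mbtps2 it moved between 20.7% and 88.0% and for Eif2ak3 between 39.2% and 140%, so the shares of these low-count genes are poorly determined. Among the 31 genes that were called higher with an unwounded log2 ratio of at least 1.5, Atf6b and Atf6 included, the median share was 57.8% with quartiles of 21.6% and 67.7%. The pair lay between the lower quartile and the median of genes of like enrichment. Wounded minus unwounded, the log2 ratio differed by -1.28 for Atf6b (SE 0.14) and -1.04 for Atf6 (SE 0.17), and by -0.34 to 0.10 for the other 8 members. In this interaction comparison 0.125% of all genes tested, 17 genes, passed an adjusted p of 0.05. Atf6b and Atf6 were among them, which was known when the genes were put together.

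The ratios were also taken with a trend on gene length removed from each library. Atf6b then stood at 2.49 unwounded and 1.09 wounded (log2), and Atf6 at 1.65 and 0.51. The wounded ratio turned negative for Ern1 (-0.17), Mbtps1 (-0.20) and Mbtps2 (-0.03). The unwounded ratio changed sign for Mbtps1 (-0.02) and Creb3 (0.10). No other ratio of a member changed sign in this fit.

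The response of the total fraction to wounding was tested with edgeR's quasi-likelihood test, adjusted by Benjamini-Hochberg over 13571 genes. The known change of the ratio with wounding is the cortical wound response minus the total one, so neither response is independent of how the genes were chosen, and the p-values of members support nothing beyond that choice. It asks whether translated mRNA outside the captured fraction changed level. Of the 10 members, 1 was called higher and 0 lower, where 8.39% of all genes were higher and 7.2% lower (15.6% in all). Atf6 rose by 0.38 on the log2 scale (SE 0.12, adjusted p = 0.0408), with all 3 wounded total libraries above all 3 unwounded ones, as for 14.5% of all genes. Ern1 was the only member with all 3 wounded total libraries below the unwounded ones, as for 17.6% of all genes, and did not pass the test. The call lay near the threshold: it was kept in 7 of 22 alternatives, in which the log2 fold change ran from 0.29 to 0.52 and the adjusted p from 0.0061 to 0.208. Atf6b, its paralog, had a log2 fold change of -0.02 (SE 0.10, edgeR adjusted p = 0.933), and its groups overlapped.

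None of the other 8 members passed in the total fraction with all libraries, and Atf6 was the only member of the 10 with an unadjusted p under 0.05, which 29.3% of all genes had. The largest differences were -0.33 for Eif2ak3 (SE 0.30, edgeR adjusted p = 0.514), -0.31 for Ern1 (SE 0.22, adjusted p = 0.40) and -0.30 for Mbtps2 (SE 0.25, adjusted p = 0.462). Creb3 stood at 0.28 (SE 0.18, adjusted p = 0.333) and Hspa5 at -0.19 (SE 0.14, adjusted p = 0.40). Without wounded total replicate 1 the edgeR test called 3 members: Atf6 at 0.37 (adjusted p = 0.0427), Creb3 at 0.50 (adjusted p = 0.00945) and Hspa5 at -0.38 (adjusted p = 0.0172). Of all genes, 13.4% were called higher and 11.5% lower without this library. In that library Creb3 was the lowest of the 3 wounded total values (25.4 CPM against 41.4 and 47.0) and Hspa5 the highest (86.1 CPM against 62.7 and 58.2). The calls of Creb3 and Hspa5 therefore rest on whether this 1 library is kept.

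In the cortical fraction, wounding was followed by lower levels of the ATF6 mRNAs. Of the 10 members 2 were called lower and 0 higher, and 4 had an unadjusted p under 0.05, where 0.884% of all genes were lower and 1.6% higher (2.48% in all) and 17.3% had an unadjusted p under 0.05. The log2 fold change was -0.66 for Atf6 (SE 0.12) and -1.30 for Atf6b (SE 0.10), a level 2.46-fold lower, with every wounded cortical library of both genes below every unwounded one. The share of enrichment kept after wounding, on which the genes were selected, uses these same wounded and unwounded cortical libraries, so both values are given as description without a p-value and nothing is read from the count. The level of Atf6 was lower in the cortical and higher in the total libraries after wounding, while that of Atf6b was lower in the cortical ones and close to its former level in the total ones.

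The other sensors did not pass the test in the cortical fraction. Ern1 had a log2 fold change of -0.65 (SE 0.22, edgeR adjusted p = 0.133) and Eif2ak3 of -0.39 (SE 0.29, edgeR adjusted p = 0.552). The p-values of this paragraph come from the same libraries as the selection, so the contrast with Atf6 and Atf6b is no test result. Mbtps2 stood at -0.64 (SE 0.24, edgeR adjusted p = 0.182). For Ern1 and Mbtps2, as for Atf6 and Atf6b, the wounded cortical libraries lay wholly below the unwounded ones, which held for 11.5% of all genes. Creb3 was the only member whose wounded cortical libraries lay wholly above the unwounded ones (15.4% of all genes), at 0.38 (SE 0.18, edgeR adjusted p = 0.294). The remaining members, Hspa5, Xbp1, Mbtps1 and Ddit3, had log2 fold changes of -0.17 to 0.10. The median of the 10 members was -0.28 in the cortical and 0.05 in the total fraction, beside 0.02 and -0.03 over all genes tested. The summed keratinocyte markers were also higher in the wounded libraries (14762 to 17545 CPM in the total and 18360 to 18725 CPM in the cortical fraction) than in the unwounded ones (8332 to 9590 CPM and 12990.5 to 13074 CPM). Krt5 and Krt14 made up most of this sum. The means of Krt5, Krt14, Krt1, Krt10 and Dsp were higher in both fractions after wounding. Mean Dsg3 was lower, at 55.6 against 65.4 CPM in the total and 80.5 against 84.9 CPM in the cortical fraction. Mean Trp63 and Cdh1 were higher in the total and lower in the cortical fraction. The summed immune markers, of which only Cd68 reached a mean of 1 CPM, were 43.2 to 58.7 CPM in the wounded total and 32.9 to 38.6 CPM in the wounded cortical libraries, against 20.9 to 24.9 CPM and 17.8 to 20.9 CPM in the unwounded ones. The part of these markers in the results was not tested.

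**Figure D3:**
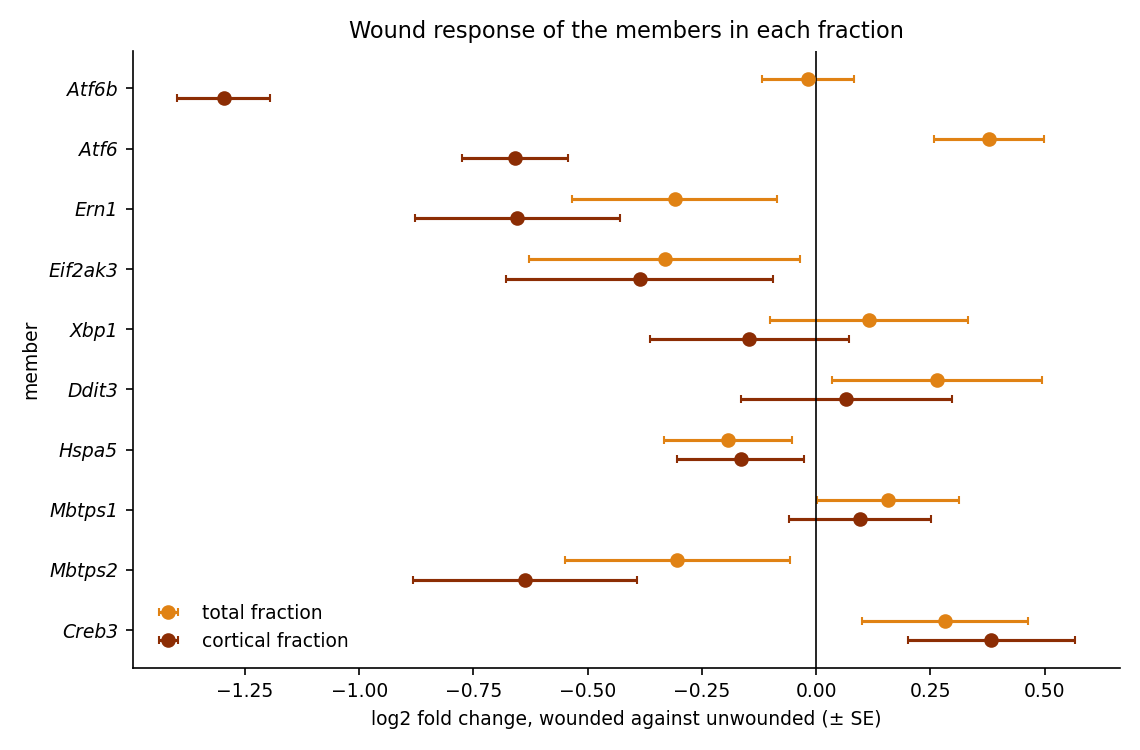
Log2 fold change of wounded over unwounded (horizontal axis) with its SE for each of the 10 genes in the total and the cortical fraction. Atf6b and Atf6 lie at -1.30 and -0.66 in the cortical fraction and at -0.02 and 0.38 in the total fraction, and the other 8 lie between -0.65 and 0.38, most with wider errors.

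The genes whose pattern over the 12 libraries was most like that of Atf6b, by Pearson's r of log2 CPM among 9317 genes with 100 counts or more on average, were Prune2 (r = 0.990), Ythdf1 (r = 0.986) and Ppp1r13l (r = 0.982). The 12 points share 4 groups, so these values describe the group pattern. Prune2 stood at 27.0 ± 3.28, 216 ± 13.5, 30.4 ± 6.09 and 88.7 ± 2.39 CPM (SD, n = 3) in the total and cortical groups of unwounded and then of wounded cells, with the total groups lowest and the unwounded cortical group highest, as for Atf6b. Atf6 was 19th by this measure (r = 0.959). Of the other members, Hspa5 (r = 0.758) was 552nd, Mbtps2 (r = 0.713) 789th, Ern1 (r = 0.675) 1002nd and Eif2ak3 (r = 0.670) 1029th. Xbp1, Mbtps1, Ddit3 and Creb3 had r of -0.227 to 0.232.

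Other genes of the response were followed in 5 lists of 75 genes in all, of which 70 could be tested. The lists, Atf4 included, were chosen with earlier results of these data known, so their p-values are no independent support. In the total fraction after wounding 11 of the 70 rose and 6 fell, where 8.39% of all genes rose and 7.2% fell. In the cortical fraction 1 rose and 2 fell, against 1.6% and 0.884% of all genes. Cortical over total, 15 were higher and 4 lower in unwounded cells (6.62% and 7.59% of all genes), and 8 higher and 6 lower in wounded cells (7.62% and 8.03%). Without wounded total replicate 1 the total wound response gave 16 and 16 (13.4% and 11.5% of all genes) and the cortical one 3 and 7 (5.47% and 3.6%). The ratios then gave 19 and 7 in unwounded (10.1% and 12.3%) and 17 and 8 in wounded cells (12.1% and 12.6%). The median log2 value over the 70 genes was 0.05, -0.02, 0.13 and 0.08 in these comparisons, against medians over all genes of -0.03, 0.02, 0.00 and 0.04.

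The ER chaperones and folding enzymes, many of them known targets of ATF6 and XBP1, differed in direction. Of 20 tested, 1 rose and 4 fell in the total fraction after wounding (4 and 9 without wounded total replicate 1), with a median of -0.15, where the all-gene shares were 8.39% and 7.2% (13.4% and 11.5% without it). Erp44, which retrieves proteins to the ER, rose by 0.57 (SE 0.09, edgeR adjusted p = 5.33e-04). Sdf2l1, a BiP cofactor, fell by 0.74 (SE 0.14, edgeR adjusted p = 0.00226), and Manf, a secreted protein of the ER stress response, fell by 0.68 (SE 0.11, edgeR adjusted p = 6.54e-04). Both were also lower in the cortical than in the total fraction of unwounded cells, with log2 ratios of -0.87 and -0.72 (edgeR adjusted p = 9.96e-04 and 5.52e-04). Hyou1, a large ER chaperone, was higher in the cortical fraction before (0.37, edgeR adjusted p = 0.0245) and after wounding (0.39, edgeR adjusted p = 0.0215), calls kept in 17 and 15 of 22 alternatives. In the cortical fraction 0 of the 20 were called after wounding, where 2.48% of all genes were. Of the 20, 1 had an unadjusted p under 0.05 by edgeR, against 17.3% of all genes. By the alternatives, DESeq2 among them, at most 2 were called, while the count over all genes ran from 108 to 1423.

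Of 19 tested genes of ER-associated degradation, the disposal of misfolded ER proteins, 4 rose and 0 fell in the total fraction after wounding, and 6 rose and 2 fell without wounded total replicate 1 (all genes: 8.39% and 7.2%, 13.4% and 11.5% without it). Vcp, the ATPase that pulls proteins out of the ER membrane, rose by 0.76 (SE 0.11, edgeR adjusted p = 2.46e-04), and Os9, a lectin that recognises misfolded glycoproteins, by 0.58 (SE 0.11, edgeR adjusted p = 0.00263). In unwounded cells 4 were higher and 2 lower in the cortical fraction (6.62% and 7.59% of all genes), and 6 and 2 without that library. Edem3, a mannosidase of this pathway, went from 7.87 ± 0.787 CPM in the total to 17.2 ± 1.31 CPM in the cortical group (SD, n = 3; log2 ratio 1.12, SE 0.29, edgeR adjusted p = 0.0152, kept in 19 of 22 alternatives). Ube2j1, an ER-anchored ubiquitin-conjugating enzyme, was lower in the cortical fraction both unwounded (-0.43, edgeR adjusted p = 0.0279, kept in 15 of 22 alternatives) and wounded (-0.74, edgeR adjusted p = 0.00113).

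In the PERK branch Atf4 had a high cortical ratio in unwounded cells and a lower one in wounded cells. Atf4, the transcription factor whose translation rises when PERK is active, stood at 492 ± 26 CPM in the unwounded total, 1377 ± 19.9 CPM in the unwounded cortical, 452 ± 70.5 CPM in the wounded total and 610 ± 29.9 CPM in the wounded cortical group (SD, n = 3). Its log2 ratio was 1.49 (SE 0.12, edgeR adjusted p = 4.93e-07) unwounded and 0.43 (SE 0.11, edgeR adjusted p = 0.0176, kept in 19 of 22 alternatives) wounded, an interaction of -1.05 (SE 0.16, edgeR adjusted p = 0.0120). It fell by 1.17 in the cortical fraction after wounding (SE 0.12, edgeR adjusted p = 6.27e-05). The interaction call was lost in 5 alternatives that each left out 1 cortical library, with adjusted p up to 0.0876, and the value lay between -1.17 and -0.97 over all its alternatives. Ddit3, which ATF4 is known to induce, had a log2 ratio of 0.10 unwounded and -0.09 wounded.

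Of 14 tested PERK branch genes, 2 rose and 1 fell in the total fraction after wounding, and 1 rose and 2 fell in the cortical fraction (all genes: 8.39% and 7.2%, and 1.6% and 0.884%). Without wounded total replicate 1 these became 3 and 3 (13.4% and 11.5% of all genes) and 2 and 4 (5.47% and 3.6%). Ppp1r15a (GADD34), the stress-induced phosphatase subunit that reverses PERK signalling, rose by 0.96 in the total fraction (SE 0.12, edgeR adjusted p = 8.61e-05) and by 0.47 in the cortical one (SE 0.12, edgeR adjusted p = 0.0477, kept in 5 of 22 alternatives). Ppp1r15b (CReP), the constitutive counterpart, fell by 0.52 in the total (edgeR adjusted p = 0.0180) and by 0.67 in the cortical fraction (edgeR adjusted p = 0.0161), calls kept in 14 and 15 of 22 alternatives. Nupr1, a stress-induced nuclear protein, rose by 0.92 in the total fraction (SE 0.13, edgeR adjusted p = 2.84e-04) and was lower in the cortical than in the total fraction of wounded cells (log2 ratio -0.96, edgeR adjusted p = 4.92e-04).

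Among 6 tested partners of IRE1, 3 were higher in the cortical fraction of unwounded cells (6.62% of all genes), with Sec61a1, the pore of the ER translocon, at 0.80 (SE 0.19, edgeR adjusted p = 0.00886, kept in 21 of 22 alternatives) and Sec63, a translocon partner, at 0.67 (SE 0.14, edgeR adjusted p = 0.00370). Sec63 rose by 0.79 in the total fraction after wounding (edgeR adjusted p = 9.56e-04). Of 11 tested CREB3 family genes and other substrates or partners of the proteases, 4 were higher in the cortical fraction of unwounded cells and 0 lower (6.62% and 7.59% of all genes), and 6 and 0 without wounded total replicate 1 (10.1% and 12.3%). Crebrf, a regulator of CREB3, went from 6.60 ± 0.826 CPM in the total to 16.0 ± 2.28 CPM in the cortical group (SD, n = 3; log2 ratio 1.27, SE 0.18, edgeR adjusted p = 3.29e-04). Creb3l2, a membrane-bound relative of ATF6, went from 26.9 ± 2.05 CPM to 51.9 ± 6.13 CPM (log2 ratio 0.95, SE 0.16, edgeR adjusted p = 0.00113). In the total fraction after wounding Crebrf rose by 1.04 (edgeR adjusted p = 0.00105) and Creb3l2 by 0.80 (edgeR adjusted p = 0.00309), and Hcfc1, a cofactor that binds CREB3, fell by 0.57 (edgeR adjusted p = 0.0138, kept in 19 of 22 alternatives). Srebf1, a lipid-synthesis factor released by the same 2 proteases, was higher in the cortical fraction of both unwounded (0.94, SE 0.17, edgeR adjusted p = 0.00139) and wounded cells (0.80, SE 0.16, edgeR adjusted p = 0.00383).

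**Figure D4:**
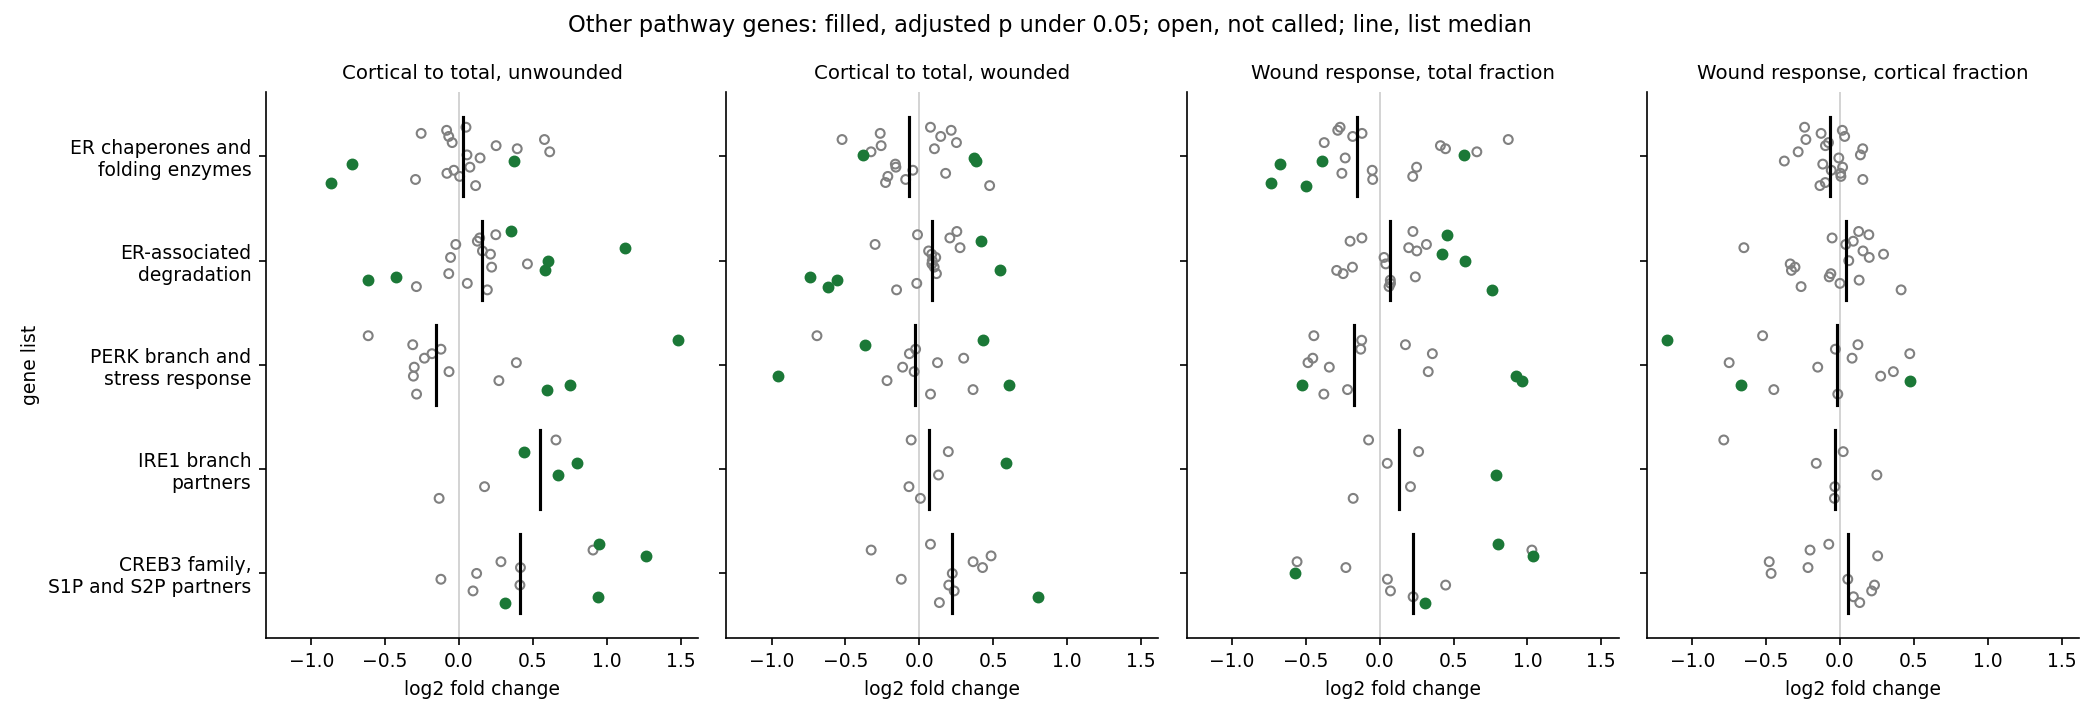
Log2 values of the 70 tested pathway genes (points, by list) in the wound responses of the total and cortical fractions and the cortical-to-total ratios of unwounded and wounded cells, with called genes marked. The chaperones spread on both sides of 0 in every panel, and Atf4 stands at 1.49 in the unwounded ratio and at -1.17 in the cortical wound response.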

How the data were processed

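The files that the authors deposited hold raw counts per gene and, separately, FPKM values (the same counts relative to gene length and library size), for each of the 12 libraries, beside annotation columns such as gene length, per the file headers. The submitters' processing notes name CASAVA, HISAT2 and mm10 without versions, and the counting tool and its handling of shared reads are not given in the sources used here. Each deposited FPKM was proportional to count over gene length within a library. The poly-A RNA was made into non-directional libraries, per the labels' protocols. The number of sample columns left unused was 0.

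Groups and replicate numbers came from the sample titles. In R 4.3.3 with edgeR 4.0.16, genes were filtered with filterByExpr, scaled by TMM (factors 0.831 to 1.10) and fitted in 1 quasi-likelihood model over all 12 libraries, with 5 two-sided contrasts adjusted by Benjamini-Hochberg over 13571 genes at 0.05. Errors of log2 fold changes are standard errors (SE), and log2 CPM took a prior count of 2. The members and the 5 pathway lists (ER chaperones, ER-associated degradation, PERK branch, IRE1 partners, CREB3 family and protease partners) were chosen with earlier results of these data known. From each list and contrast, at most 2 called genes with the largest change in each direction were named. Of the listed pathway genes, 70 of 75 were tested. Alternatives were RLE and library size scaling, DESeq2 1.42.0, limma 3.58.1 on log2(FPKM + 1) or log2(FPKM + 0.1), no filter, only the groups compared, a replicate block, a gene length trend (loess, span 0.5) removed, and leaving out each library. Simulated counts with known differences were also run through the main fit. Of the alternatives, RLE and library size scaling, DESeq2, the replicate block, limma on log2(FPKM + 1) and the length trend were run on them. Coding sequences came from GENCODE M21 (GRCm38) and promoters from RefSeq (GRCm38.p6), for 9 of the 10 members. Figures were drawn with matplotlib 3.10.9. No 2 libraries of a group agreed within sampling noise.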

Additional observations from a re-analysis of the deposited data

Results flagged for a closer look

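Of the 10 members and the 70 other pathway genes, 3 passed the test of the difference itself, as did 0.125% of all genes tested. For these the cortical-to-total log2 ratio differed between wounded and unwounded cells. Wounded minus unwounded, it differed by -1.28 for Atf6b and by -1.04 for Atf6, which were known for this when the genes were put together. It differed by -1.05 for Atf4 (edgeR adjusted p = 0.0120), whose list was also chosen with earlier results of these data known. All 3 genes had a lower cortical level in each wounded library than in each unwounded one. Over the alternatives, 0 to 3 of the 70 pathway genes passed this test, and 2 did without wounded total replicate 1. Without that library 1.06% of all genes were called higher and 1.88% lower. Prune2, Ythdf1 and Ppp1r13l, picked for a pattern like that of Atf6b, were not counted here. Their log2 ratios differed by -1.46, -0.85 and -0.91.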

How the results depend on the processing

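The number of members called in the cortical wound response was 2 in each of 22 alternatives, while the count over all genes ran from 108 to 1423. The 2 were Atf6 and Atf6b. The kept share on which the genes were selected uses these same cortical libraries, so nothing is read from this count. The number of members called in the total fraction was 0 with library size scaling, no filter, only the groups compared and limma with either pseudocount (1 or 0.1). Leaving out each library in turn gave 0 to 3 members, while the count over all genes ran from 1128 to 3502. The share of enrichment kept by Atf6 was 49.5% with library size scaling, 30.6% with the length trend removed and 30.5% with that and the replicate block; that of Mbtps2 turned to -7.79% and -8.85% in the latter pair of fits.

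Over all genes, the unwounded cortical-to-total count of 1928 became 3014 with only the groups compared and 949 to 3151 with single libraries left out. The wounded count of 2124 became 970, 1365 with the length trend removed and the replicate block, and 1084 to 3475. The wound response count was 1175 in the total (main 2116, 1128 to 3502 with libraries left out) with only the groups compared. In the cortical fraction it was 199 with library size scaling, 736 with DESeq2, 559 without a filter, 1423 with only the groups compared and 108 to 1276 with libraries left out (main 337). The interaction count of 17 became 11 with library size scaling, 72 with DESeq2, 138 without a filter, 10 with the replicate block, 10 with limma at either pseudocount, 30 with the length trend removed, with or without the block, and 4 to 413 with libraries left out; it could not be run with only the groups compared. The highest count of each range is that without wounded total replicate 1. The split of calls into higher and lower moved with the scaling. It went from 898 and 1030 to 1582 and 469 (unwounded ratio), from 1034 and 1090 to 2203 and 520 (wounded ratio), from 1139 and 977 to 708 and 1104 (wound response, total fraction) and from 217 and 120 to 108 and 91 (cortical fraction) with library size scaling. With the length trend removed it was 365 and 1094 for the wounded ratio and 1909 and 664 for the wound response of the total fraction. Limma with a pseudocount of 1 or 0.1 gave 624 and 1023 or 618 and 994 for the wounded ratio. The length trend shifted the median of all genes by 0.109 in the total wound response and by -0.101 in the interaction.

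Small values that passed no test changed sign. In the total wound response, Atf6b was 0.0123 with RLE scaling, 0.0124 with DESeq2, 0.00718 and 0.00725 with limma at a pseudocount of 1 and 0.1, 0.0772 with the length trend removed, 0.0726 with the block added, and -0.0695 to 0.0692 when single libraries were left out. With single libraries left out, Ddit3 ran from -0.00975 to 0.430 in the total and from -0.107 to 0.284 in the cortical response, Mbtps1 from -0.0655 to 0.264 and from -0.0395 to 0.215, and Xbp1 from -0.00868 to 0.224 in the total response. The cause of these shifts was not tested.

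Replicate numbers were shared across groups, but same-numbered libraries correlated in their deviations by -0.0508 to 0.219 (2 of 18 pairs over 0.1), so the numbers were not taken as pairs. With the replicate block the wound response of Atf6 in the total fraction had an edgeR adjusted p of 0.0441. Low counts limit Eif2ak3, Xbp1 and Ern1, which went down to 77, 85 and 97 counts in a library.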
